A study of Mus musculus with 9 samples.

Results

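The network-forming and basement membrane collagens measured here were Col4a1, Col4a2, Col6a1, Col6a2, Col6a3, Col8a1, Col8a2, Col15a1 and Col18a1. They were taken by symbol from the gene lists and make up 9 of the 54534 genes listed for the knee libraries. All 9 symbols were found in every one of the 9 libraries. Cells came from knees of Gdf5-Cre;Tom;Pdgfrα-H2BGFP mice aged 11 to 12 weeks, and every mouse carried all of these alleles. Cre driven by Gdf5, a gene of the embryonic joint interzone, turns on tdTomato (Tom) permanently in that lineage, and the Pdgfrα promoter drives a nuclear GFP in fibroblasts and progenitors. Sorting gave Tom+ cells, the Gdf5 lineage, and Tom-GFP+ cells, fibroblasts outside it. The steady state was represented by 2 Tom+ libraries and 1 Tom-GFP+ library. The injured state was represented by 4 Tom+ and 2 Tom-GFP+ libraries, taken on day 6 after a medial parapatellar arthrotomy of the right knee with a full-thickness scratch of the cartilage. By the study's own account the libraries of a group came from separate mice and the Tom-GFP+ mice were matched to Tom+ mice, without the pairs being named. The Tom-GFP+ gate takes only cells with Pdgfrα-driven GFP, so cells without this GFP fall outside it.

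Collagens of these families do not build the banded fibrils of tendon and bone. Collagen IV, made of trimers of Col4a1 and Col4a2 chains, is the sheet-like scaffold of basement membranes, the thin layers on which vessel cells, muscle and epithelia sit. Collagen VI, assembled from Col6a1, Col6a2 and Col6a3, forms beaded microfilaments around cells, including the pericellular matrix of chondrocytes. Collagen VIII, made of Col8a1 and Col8a2, is a short-chain collagen that forms open lattices and is known from vessel walls and the corneal endothelium. Col15a1 and Col18a1 encode the multiplexins, proteoglycan collagens that lie at or just below basement membranes, and the end of the collagen XVIII chain is released as endostatin. The synovial lining formed by fibroblast-like synoviocytes (FLS) lacks a continuous basement membrane, and collagens IV and VI are known components of its matrix.

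The genes lie on 5 chromosomes of GRCm38, with gene bounds from GENCODE vM21. Col4a1 (ENSMUSG00000031502, chr8:11198423-11312826, minus strand) and Col4a2 (ENSMUSG00000031503, chr8:11312805-11449287, plus strand) stand head to head and are read in opposite directions. Col6a1 (ENSMUSG00000001119, chr10:76708792-76726168) and Col6a2 (ENSMUSG00000020241, chr10:76595762-76623630) are neighbours on the minus strand. Col18a1 (ENSMUSG00000001435, chr10:77052178-77166548, minus strand) is on the same chromosome, and Col6a3 (ENSMUSG00000048126, chr1:90765923-90843971, minus strand) is not. Col8a1 (ENSMUSG00000068196) is at chr16:57624258-57754737 on the minus strand. Col8a2 (ENSMUSG00000056174, chr4:126286793-126314330) and Col15a1 (ENSMUSG00000028339, chr4:47208161-47313167) are both on the plus strand.

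The sequence shared by the ends of Col4a1 and Col4a2 is shown because the levels of these chains went together across classes and libraries. These bases belong to the first annotated exon of both genes (chr8:11312805-11312826, given on the plus strand).
Col4a2/Col4a1: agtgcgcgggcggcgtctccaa
The bases just before the starts of the collagen VI genes are shown because their levels also went together, although Col6a3 is on another chromosome. All lie outside annotated exons and are given 5′ to 3′ on the minus strand for Col6a1 (chr10:76726169-76726294), Col6a2 (chr10:76623631-76623880) and Col6a3 (chr1:90843972-90844221). In the collagen VI sequences capitals mark a GC box, GGGCGG on either strand. The shared collagen IV bases above also hold GGGCGG, which is left in lower case there.
Col6a1: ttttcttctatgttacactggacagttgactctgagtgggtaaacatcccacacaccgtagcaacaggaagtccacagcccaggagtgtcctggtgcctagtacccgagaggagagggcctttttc
Col6a2: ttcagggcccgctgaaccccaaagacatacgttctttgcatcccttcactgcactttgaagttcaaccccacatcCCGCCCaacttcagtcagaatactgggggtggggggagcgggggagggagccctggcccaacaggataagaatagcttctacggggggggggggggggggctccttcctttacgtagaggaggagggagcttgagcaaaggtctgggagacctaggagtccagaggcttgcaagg
Col6a3: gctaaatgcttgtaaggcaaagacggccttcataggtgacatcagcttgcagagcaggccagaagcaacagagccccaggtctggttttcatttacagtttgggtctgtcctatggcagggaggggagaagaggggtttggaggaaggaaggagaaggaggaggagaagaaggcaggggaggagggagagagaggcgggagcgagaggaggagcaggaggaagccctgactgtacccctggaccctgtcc
All sequences are RefSeq sequence on GRCm38.p6. In the 250 bases before each annotated start, all 9 genes had a window and 11 windows were found in all. No member window held TATAAA, a sequence present in 12.4% of the 32851 windows of the same length. CCAAT was present in 33.8% of all windows and was found in the windows of Col4a1 and Col4a2 and in 1 of the 2 windows of Col18a1. The GC box was present in 32.7% of all windows, with 4 matches before Col8a1, 4 before Col8a2 and 2 before Col4a2. It also had 3 matches in 1 of the 2 windows of Col18a1 and 3 and 1 in the 2 windows of Col6a2. The windows of Col4a1, Col6a1, Col6a3 and Col15a1 held none. Both strands were searched. The windows of Col4a1 and Col4a2, which lie on either side of the shared bases, held 74.4% and 73.6% G and C, against a median of 52.4%.

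The 9 libraries held 333 to 865 barcodes and 2866464 to 15033902 UMIs, the unique molecular identifiers that count RNA molecules. Of 5161 barcodes, 4788 were kept as cells. At most 2 barcodes were shared by any pair of libraries. The reporters fitted the sort, as tdTom was at 328 to 706 CPM (counts per 1000000 UMIs) in Tom+ libraries and at 2.71 to 7.50 CPM in Tom-GFP+ libraries. Tom+ injured replicate 1 was the deepest library, and it shares an older format of the gene list with the 3 steady-state libraries. It also stood apart in its mix, with 53.3% of its Thy1+ fibroblasts in 1 cluster that took 14.8 to 28.2% in the other 8 libraries, so the calls and ranges of the members after Tom+ injury are given with and without it. Cell classes were rebuilt from marker genes with all collagens held out of the clustering, and each name below means a class like that cell type. All values are CPM, the UMIs of a gene scaled to the UMIs of its class and library, from sums of 10 cells or more, and n counts libraries. A 5′ count depends on each transcript, so levels are compared between cells and not between genes.

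Collagen IV was highest in the cells of the vessel wall. It was also high in the synovial lining and, by its mean over libraries, in 1 cluster of sublining fibroblasts. Mural cells, the smooth muscle and pericytes of vessels that carried Acta2, Tagln and Rgs5, had Col4a1 at 1394 ± 763 CPM (SD, n = 4) and Col4a2 at 840.0 ± 270 CPM. The 19 endothelial cells, too few for a sum per library, had pooled levels of 1972 CPM for Col4a1 and 1355 CPM for Col4a2. An unnamed cluster of 26 cells, led by Esm1, Gdpd2 and Il1rn and also too few for sums, had 549.7 CPM and 334.6 CPM from a pooled depth of 125516 UMIs. Among the named classes, the next were the cells that express Prg4, the joint lubricant. Prg4+ Clic5-low cells had Col4a1 at 295 ± 79.0 CPM (n = 9) and FLS, which also express Clic5, had 292 ± 74.8 CPM (n = 8), a gap within the spread. Thy1+ sublining fibroblasts as a whole had 133 ± 70.5 CPM (n = 9), but their cluster 9 had Col4a1 at 508 ± 214 CPM and Col4a2 at 278 ± 96.3 CPM. Osteoblast-lineage cells had Col4a1 at 84.0 ± 53.6 CPM (n = 9). Tenocyte-lineage cells had 44.8 ± 16.2 CPM and injury-induced fibroblasts 38.5 ± 25.1 CPM (n = 7). Chondrocyte-lineage cells were lowest among stromal classes with 15.03 ± 13.3 CPM (n = 8). Immune cells, which serve here as the background, had 1.18 CPM of Col4a1 and 0 UMIs of Col4a2 in 3 libraries. Col4a2 gave the same ends of the order.

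The share of single cells with a UMI followed the same order at equal depth. With every cell thinned to 3000 UMIs, Col4a1 was detected in 90.2% of mural cells, 71.4% of the 21 unnamed cells deep enough, 48.6% of FLS, 27.6% of Thy1+ fibroblasts and 6.04% of chondrocyte-lineage cells. The background share in immune cells was 2.25%. Without thinning, Col4a1 was detected in 91.1% of FLS at a median depth of 17524 UMIs and in 49.2% of Thy1+ fibroblasts at 9866 UMIs.

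**Figure D1:**
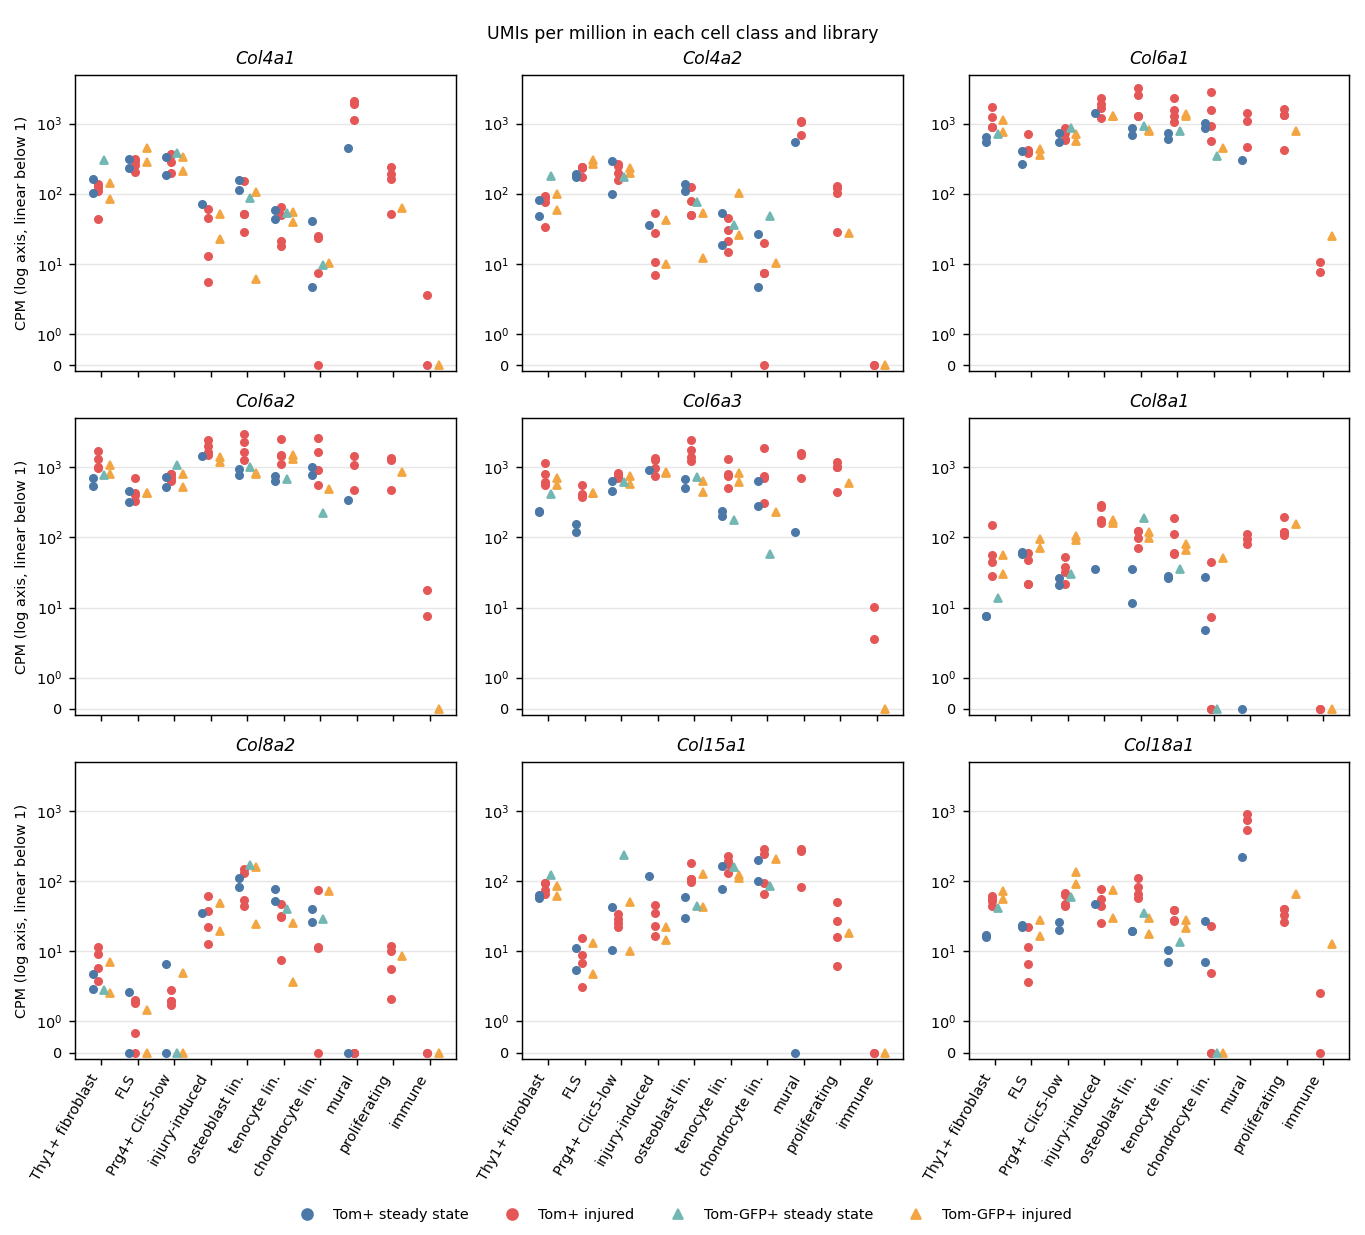
Levels of the 9 collagens in CPM (log axis, linear below 1) in 10 cell classes, with 1 point per library coloured by lineage and state. Col4a1, Col4a2 and Col18a1 stand highest in mural cells, with mural means of 1394, 840.0 and 601 CPM, and Col8a2 stands highest in osteoblast-lineage cells.

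Against Thy1+ fibroblasts of the same libraries, FLS carried more Col4a1 and Col4a2 and less of nearly all the other members. The comparison was made by edgeR's quasi-likelihood test with the library as a block and Benjamini-Hochberg adjustment over 11123 genes. It called 2 members higher and 6 lower in FLS, where 40% of all genes passed in either direction. Col4a1 was raised in FLS with a log2 difference of 1.25 (SE 0.16, adjusted p = 1.08e-05) and Col4a2 with one of 1.52 (SE 0.14, adjusted p = 1.74e-07), each in 8 of 8 libraries. Col15a1 was lower, with a log2 difference of -3.37 (SE 0.21, adjusted p = 3.28e-09), at 8.55 ± 4.35 CPM in FLS and 74.7 ± 14.4 CPM in Thy1+ fibroblasts. Col18a1 was lower by a log2 difference of -2.004 (SE 0.31, adjusted p = 6.80e-05), in 6 of 8 libraries. Those 6 were the injured libraries, and in the Tom+ steady state FLS had 22.1 and 23.96 CPM of Col18a1 from 6 and 9 UMIs, above the 17.3 and 16.03 CPM of Thy1+ fibroblasts. Col6a1 and Col6a2 both differed by -1.35 and Col6a3 by -0.91, each lower in 8 of 8 libraries, and Col8a2 by -2.61. All FLS together held 11 UMIs of Col8a2. Col8a1 did not pass, with a difference of -0.03 (SE 0.40). Classes were drawn from other genes of the same cells, so these differences describe the classes.

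Mural cells shared the high collagen IV and added collagen XVIII. Of 8 members tested there, 3 were higher and 2 lower than in Thy1+ fibroblasts, with 16.4% of all genes called. Col4a1 was higher by 3.43 (SE 0.45, adjusted p = 5.65e-06), Col4a2 by 3.45 (SE 0.35, adjusted p = 1.19e-07) and Col18a1 by 3.34 (SE 0.29, adjusted p = 9.73e-09), on the log2 scale and in 4 of 4 libraries. The library values of Col18a1 in mural cells were 221 CPM in the Tom+ steady-state library and 900.3, 742 and 540.5 CPM in Tom+ injured replicates 1, 2 and 4. Col4a1 in the same order was at 441, 1892, 2115 and 1128 CPM. The lone steady-state sum was thus the lowest for both, but 1 library does not allow a test of injury in these cells. Col6a1 (-0.96, adjusted p = 0.0414) and Col6a2 (-0.99, adjusted p = 0.0329) were lower and Col6a3 did not pass (-0.08, SE 0.33). These calls of Col6a1 and Col6a2 were lost in 7 and 5 of 12 alternatives, with differences of -0.41 and -0.45 in sums of at least 20 cells. Both were lost without Tom+ steady-state replicate 2 or Tom+ injured replicate 4, and Col6a1 also without Tom+ injured replicate 1. Col8a2 was at 0 UMIs in all 4 mural sums and could not be tested.

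Collagen VI was spread across the mesenchyme and was low in FLS. Col6a1 was at 1582 ± 422 CPM in injury-induced fibroblasts, 1380.0 ± 896 CPM in osteoblast-lineage cells, 1224 ± 529 CPM in tenocyte-lineage cells and 942 ± 355 CPM in Thy1+ fibroblasts, and neighbours in this order lay within their spread. FLS stood below all of these with 423 ± 128 CPM. The 1 sum of adipocyte-like cells was lower still at 258 CPM, and immune cells had 14.5 CPM. Col6a2 ran from 1658 CPM in injury-induced fibroblasts to 440.0 ± 116 CPM in FLS. Col6a3, the long chain whose end is cleaved after secretion, ran from 1094 ± 683 CPM in osteoblast-lineage cells to 359 ± 147 CPM in FLS. Prg4+ Clic5-low cells lay above FLS in all 3 chains, with 686 ± 123 CPM of Col6a1, 734 ± 169 CPM of Col6a2 and 679 ± 118 CPM of Col6a3. Their Col6a3 level was within the spread of Thy1+ fibroblasts, which had 588 ± 290 CPM. In chondrocyte-lineage cells none of the 3 chains differed from Thy1+ fibroblasts, with log2 differences of -0.09 (SE 0.25), -0.26 (SE 0.26) and -0.29 (SE 0.33).

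The collagen VIII chains did not share their highest class. Col8a1 was highest in injury-induced fibroblasts at 182 ± 85.1 CPM (n = 7) and in proliferating cells at 140 ± 37.6 CPM (n = 5), among classes with sums. The 26 unnamed cells had a pooled level of 406 CPM from 51 UMIs. Col8a2 was highest in osteoblast-lineage cells at 103 ± 54.4 CPM (n = 9), against 35.2 ± 22.5 CPM in tenocyte-lineage cells and 5.59 ± 3.14 CPM in Thy1+ fibroblasts. The osteoblast-lineage level of Col8a2 was above that of Thy1+ fibroblasts in 9 of 9 libraries, with a log2 difference of 4.04 (SE 0.23, adjusted p = 7.67e-10). It was among 4 members that passed in that comparison, where 18.6% of genes did, and Col8a1 was higher by 1.23 and Col6a3 by 0.74. Col4a1 was lower there (-0.77, adjusted p = 0.0335), but this call was lost in 8 of 17 alternatives, among them RLE size factors (-0.72, adjusted p = 0.0513) and 5 of the 9 fits that leave out a library. Those 5 were without Tom+ injured replicate 2 or 4, the Tom-GFP+ steady-state library or either Tom-GFP+ injured library. At 3000 UMIs per cell Col8a2 was detected in 25.1% of osteoblast-lineage cells and 1.73% of Thy1+ fibroblasts, with 0 of 92 mural cells, which allows a share of up to 3.26%.

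Of Col15a1 and Col18a1, the related multiplexins, only Col15a1 was also high in classes outside the vessel wall. Among classes with sums, Col18a1 below mural cells was at most 61.1 ± 34.5 CPM. That was in Prg4+ Clic5-low cells, within the spread of the next class. Col15a1 was at 161 ± 84.0 CPM in chondrocyte-lineage cells, 161 ± 142 CPM in mural cells and 152 ± 45.4 CPM in tenocyte-lineage cells, all within each other's spread. The 19 endothelial cells had a pooled level of 453 CPM. Chondrocyte-lineage cells had 6 members called where 25.8% of genes passed, with Col15a1 (0.86, adjusted p = 0.0262) and Col8a2 (2.38) higher and Col4a1 (-3.25), Col4a2 (-2.69), Col18a1 (-2.60) and Col8a1 (-1.77) lower. In all chondrocyte-lineage cells the lower members had 23, 22, 10 and 19 UMIs, in that order. The call of Col15a1 was lost in 7 of 16 alternatives, with 0.24 (adjusted p = 0.666) in sums of at least 20 cells, and without any 1 of Tom+ steady-state replicate 1, Tom+ injured replicates 1 and 2 and Tom-GFP+ injured replicate 1. Tenocyte-lineage cells had 8 members called where 12.6% of genes passed. Col15a1 was higher there in 9 of 9 libraries by 0.94 (SE 0.12, adjusted p = 8.56e-06), Col8a1 by 0.81, Col8a2 by 2.48, Col6a1 by 0.34 and Col6a2 by 0.31. Col4a1 (-1.48), Col4a2 (-1.12) and Col18a1 (-0.97) were lower in tenocyte-lineage cells. The tenocyte count rests on the drawing of the class, as 2 members passed when cells were gated by marker UMIs one by one and 5 without the highest doublet scores. The call of Col6a2 was lost in 11 of 17 alternatives, 7 of them fits that leave out a library, all but those without Tom+ steady-state replicate 2 and without the Tom-GFP+ steady-state library.

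**Figure D2:**
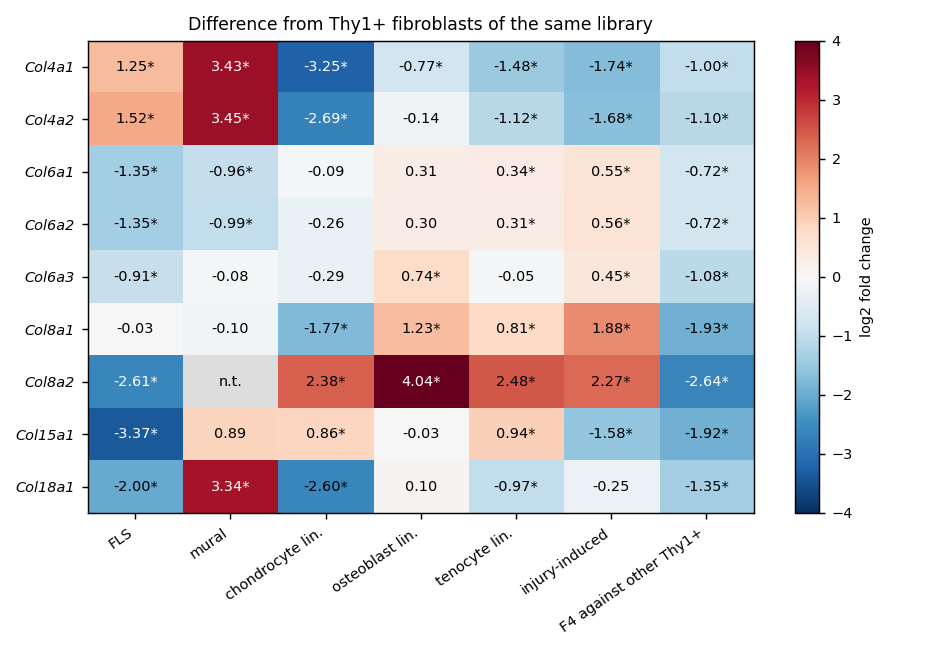
Heat map of log2 differences of the 9 collagens (down the side) between each class and Thy1+ fibroblasts of the same libraries, and between F4 cells and other Thy1+ fibroblasts (along the bottom). An asterisk marks an adjusted p under 0.05 by edgeR and n.t. a gene not tested; collagen IV is red, and so higher, in FLS and mural cells, and F4 is blue for all 9.

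The Dpp4+ universal fibroblasts (F4), led by Pi16, Scara5 and Efhd1, were low in every member. Against the other Thy1+ fibroblasts of the same libraries, 9 of 9 members were lower, where 18.4% of genes passed. Col8a2 fell furthest (-2.64, SE 0.58), but from 6.38 to 0.984 CPM with 6 of 9 F4 sums at 0 UMIs, so this value depends on the prior count. Col8a1 had a log2 difference of -1.93 (SE 0.21, adjusted p = 8.50e-07) and Col15a1 of -1.92 (SE 0.27, adjusted p = 2.09e-05), each lower in 9 of 9 libraries. Col18a1 differed by -1.35, Col4a2 by -1.10, Col6a3 by -1.08, Col4a1 by -0.997 and Col6a1 and Col6a2 by -0.72. Collagen IV and Col18a1 were not lower in every library. In Tom+ steady-state replicate 2, Col18a1 was at 16.46 CPM in F4 against 15.94 CPM in the others. In Tom-GFP+ injured replicate 1, F4 had 87.29 CPM of Col4a1 against 83.25 CPM, and 63.14 CPM of Col4a2 against 57.69 CPM. In Tom+ injured replicate 3, Col4a2 was at 105.8 CPM against 92.18 CPM. Mean Col4a1 in Tom+ injured libraries was 77.9 ± 38.5 CPM in F4 (cluster 5) and 57.9 ± 33.8 CPM in cluster 1 of the others. Col6a3 was at 304 ± 140 CPM in F4 and 635 ± 299 CPM in the others, lower in 9 of 9 libraries. Of 17 tested genes that fold, hydroxylate or export collagen chains, 12 were lower in F4 and 1 was higher, with a median log2 difference of -0.43 against -0.02 over all genes. Lysyl hydroxylases Plod2 (-1.09) and Plod1 (-0.96) were lowest, and Colgalt2, a collagen galactosyltransferase, was higher (1.73). Laminins went the other way, as 4 of 6 tested were higher in F4 and none was lower. Nidogen 1 (Nid1), which links laminin to collagen IV, was higher by 1.19 and nidogen 2 (Nid2) lower (-1.45). Of 9 collagen receptors tested, 4 were higher and 1 was lower, with Antxr2, a receptor that binds collagen VI, at 1.38.

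Within the Thy1+ fibroblasts Col4a1, Col4a2 and Col15a1 were highest in cluster 9, which was led by Ccl11, Entpd2 and F3 and also held C7 and Smoc2. Col15a1 in cluster 9 was at 184 to 383 CPM over the libraries, with means of 234 ± 5.73 CPM (n = 2) in Tom+ steady-state and 270.0 ± 47.4 CPM (n = 4) in Tom+ injured libraries. In cluster 0, led by Saa3 and Sfrp2, the same means were 47.6 ± 4.27 and 55.3 ± 17.0 CPM. Col4a1 in cluster 9 was at 464 ± 220.0 CPM and 567 ± 245 CPM, against 120 ± 1.98 and 98.9 ± 50.5 CPM in cluster 0. In the lone Tom-GFP+ steady-state library collagen IV was not particular to cluster 9. Col4a1 there was at 428 CPM in cluster 9, 417 CPM in cluster 7 and 358 CPM in cluster 1. Col4a2 in the same order was at 256, 241 and 230 CPM. Cluster 9 made up 27.1% of Thy1+ fibroblasts of the steady-state Tom-GFP+ library and up to 29.8% in Tom-GFP+ injured libraries, but 4.17% in Tom+ injured replicate 1. Col18a1 was highest in cluster 1, at 76.4 ± 38.8 CPM against 62.3 ± 52.2 CPM in cluster 9, a gap within the spread. The share of cluster 9 is measured beside the whole-class values of Col4a1, Col4a2 and Col15a1 below, and its part in them was not tested. Col6a3 in Tom+ injured libraries was at 1222 ± 264 CPM in cluster 1, the F1-like cells, and 359 ± 117 CPM in cluster 5, the F4-like cells.

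**Figure D3:**
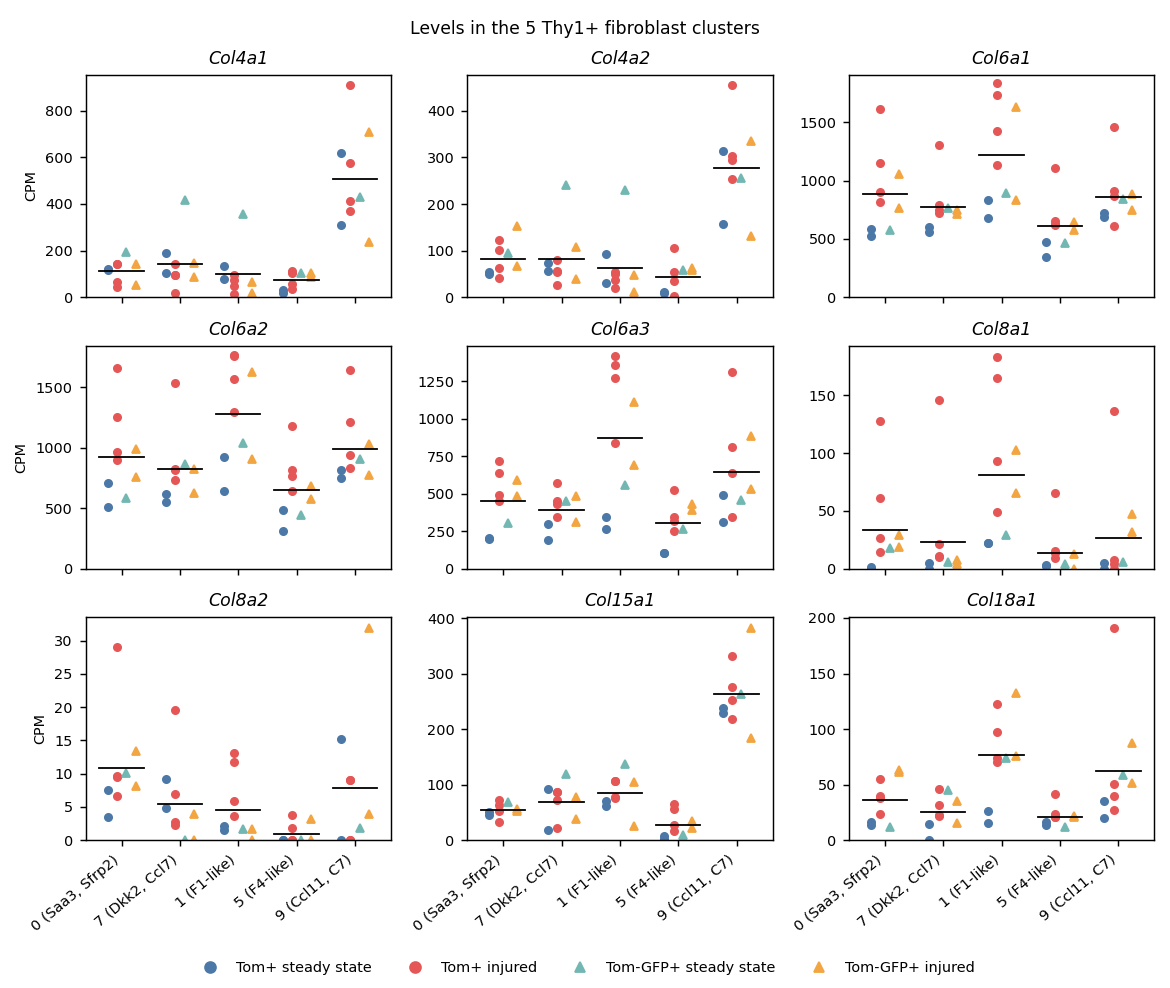
Levels of the 9 collagens in CPM in the 5 clusters of Thy1+ fibroblasts, with 1 point per library coloured by group and a line at the mean of the libraries. Col15a1 lies between 184 and 383 CPM in cluster 9 and Col4a1 between 236 and 910 CPM, while both means are lower in the other clusters.

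Injury-induced fibroblasts, the cluster led by C1qtnf3, Mest, Cthrc1 and Postn, came from injured libraries in 395 of 411 cells. Their marker score lay near that of tenocyte-lineage cells, so the name is a working one. Over the 6 injured libraries, 5 members were higher and 3 lower than in Thy1+ fibroblasts, where 18.4% of genes passed. Col8a1 was at 207 ± 60.6 CPM against 60.8 ± 45.4 CPM, a log2 difference of 1.88 (SE 0.18, adjusted p = 1.53e-05). Col8a2 was higher by 2.27 (SE 0.28), and Col6a1, Col6a2 and Col6a3 by 0.55, 0.56 and 0.45. All of these were higher in 6 of 6 libraries. Col4a1 (-1.74), Col4a2 (-1.68) and Col15a1 (-1.58) were lower in 6 of 6. Col18a1 did not pass (-0.25, SE 0.17). Of the 17 folding and modifying genes tested, 13 were higher and 1 lower, with a median of 0.52 against 0.00 over all genes.

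Whether injury changed these collagens was asked first in Thy1+ fibroblasts of the Gdf5 lineage. Col6a3 was at 237 and 232 CPM in the Tom+ steady-state libraries and at 1160.0, 802, 554 and 627 CPM in the 4 Tom+ injured libraries. Col18a1 was at 17.3 and 16.03 CPM and then at 62.1, 54.9, 44.7 and 51.7 CPM. Col8a1 was at 7.50 and 7.62 CPM and then at 150.0, 57.0, 28.1 and 44.3 CPM. For these genes every injured library lay above both steady-state libraries. In a fit of all 4 groups these 3 of 9 members passed, all higher, where 8.17% of 11933 genes passed in either direction. Col18a1 rose by 1.65 on the log2 scale (SE 0.22, adjusted p = 0.00505), Col6a3 by 1.71 (SE 0.30, adjusted p = 0.0136) and Col8a1 by 3.18 (SE 0.71, adjusted p = 0.0277). Col6a1 (0.93, adjusted p = 0.0879) and Col6a2 (0.95, adjusted p = 0.0650) did not pass. With DESeq2 they passed as well, which made 5.

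The remaining chains showed no called change in these cells. Col4a1 was at 160.0 and 103 CPM in the Tom+ steady state and at 43.4, 123, 136 and 110 CPM after injury, so the groups overlapped (log2 change -0.38, SE 0.42). Col4a2 overlapped too, at 81.3 and 48.5 CPM and then at 33.3, 85.9, 93.9 and 76.7 CPM (0.12, SE 0.42). Tom+ injured replicate 1 was the lowest for both collagen IV chains and the highest for Col6a3 and Col8a1. Col15a1 was at 64.0 and 57.3 CPM and then at 65.8, 75.8, 93.3 and 93.3 CPM, without overlap but with an adjusted p of 0.309 by edgeR. Col8a2 was at 11.5 CPM at most and overlapped (0.92, adjusted p = 0.356).

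All 3 calls rest on both Tom+ steady-state libraries, and that of Col8a1 also on Tom+ injured replicate 2, without which it had 3.31 (adjusted p = 0.0526). Without replicate 1 of them 0 members passed by edgeR, and without replicate 2 likewise, with Col6a3 at 1.74 and 1.67 (adjusted p = 0.117 and 0.114). Over all genes 64 and 182 passed there, against 975. Without Tom+ injured replicate 1 the 3 calls were kept, with Col6a3 at 1.47, Col8a1 at 2.50 and Col18a1 at 1.58, and Col6a2 passed too, which made 4. With a block for gene list format 6 members passed, as Col6a1 and Col6a2 joined and Col4a1 was called lower (-1.67, adjusted p = 0.0156), while calls over all genes rose from 975 to 1554. In that fit Tom+ injured replicate 1 alone carries the Tom+ contrast within a format. Within single clusters, an alternative added after seeing the data, Col6a3 passed in cluster 0 (1.44), cluster 1 (1.99) and cluster 5 (1.68), and no member passed in clusters 7 and 9. Col15a1 passed in cluster 5, the F4-like cells (3.07, SE 0.76, adjusted p = 0.0254), from 4.49 ± 3.03 to 41.0 ± 23.0 CPM.

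Other cells' markers also moved with injury in the Thy1+ fibroblast sums. The 7 mural markers summed to 12.4 to 13.3 CPM in Tom+ steady-state libraries, with 2 to 3 of them at 0, and to 46.1 to 415 CPM in Tom+ injured libraries. The 5 injury-induced markers summed to 47.9 to 49.7 CPM and to 1578 to 4513 CPM, with none at 0 in either state. The 6 endothelial markers stayed at 1.15 to 1.60 CPM and 0.419 to 3.36 CPM. The 6 proliferation markers went from 0 to 1.20 CPM to 3.07 to 57.5 CPM, and the 6 immune markers from 1.60 to 27.1 CPM to 7.97 to 79.6 CPM. Of the 3 members that were higher in mural cells, Col18a1 rose in these sums and Col4a1 and Col4a2 did not pass. Of the 5 members that were higher in injury-induced fibroblasts, Col6a3 and Col8a1 rose and Col6a1, Col6a2 and Col8a2 did not pass. The part of any of these cells in the collagen changes was not tested.

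**Figure D4:**
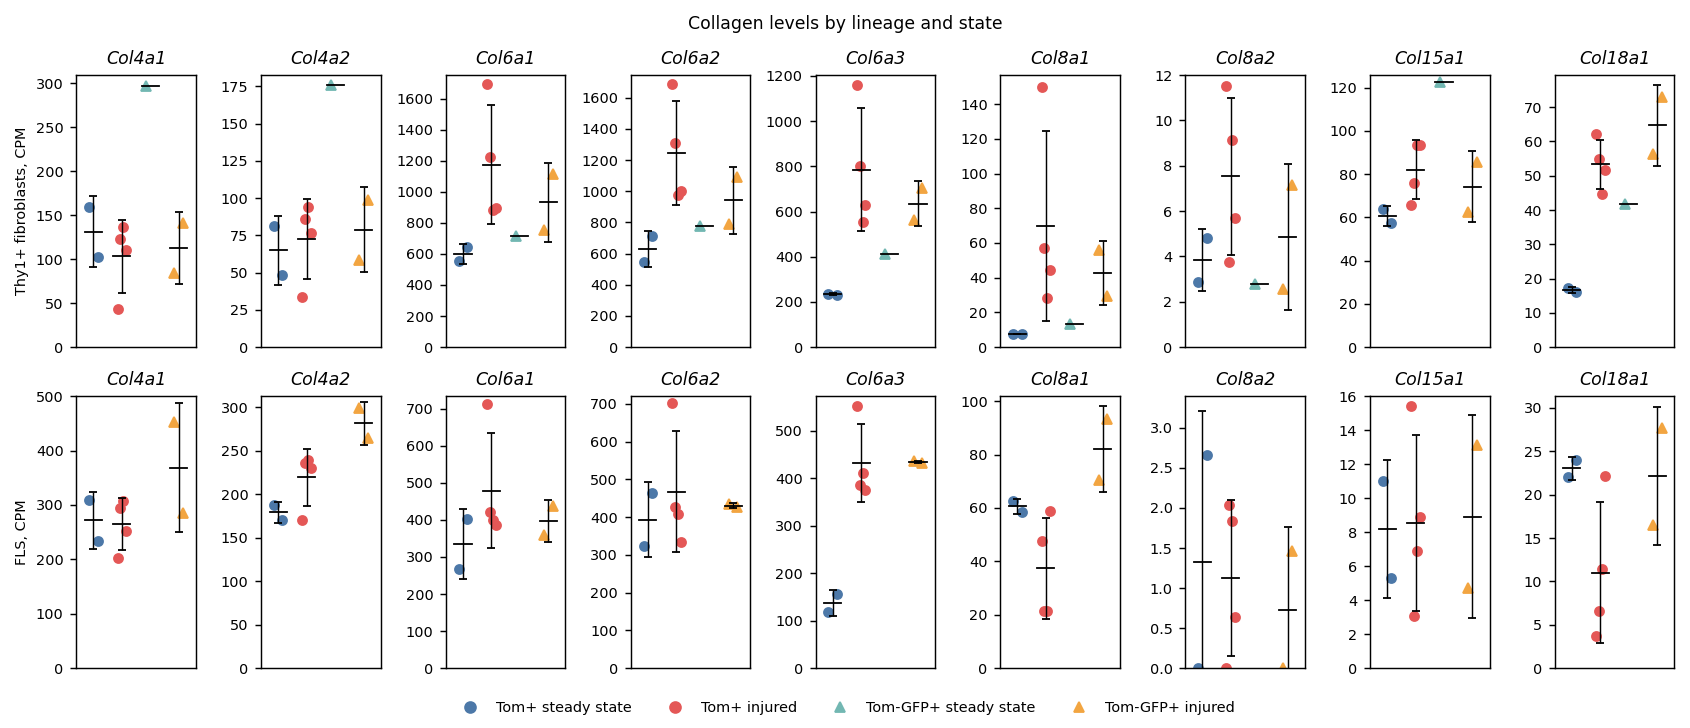
Levels of the 9 collagens in CPM in Thy1+ fibroblasts (top) and FLS (bottom), with 1 point per library by lineage and state, a line at each group's mean and bars of 1 SD. In Thy1+ fibroblasts Col6a3, Col8a1 and Col18a1 of the 4 Tom+ injured libraries all lie above the 2 Tom+ steady-state libraries, and Col4a1 and Col4a2 overlap.

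In FLS of the Gdf5 lineage Col6a3 was the one member called among 8 tested, where 4.37% of genes passed. It was at 118 and 157 CPM in the steady state, from 19 and 28 cells, and at 552, 386, 412 and 376 CPM after injury, a rise of 1.70 on the log2 scale (SE 0.22, adjusted p = 0.00326). Without Tom+ steady-state replicate 1 it no longer passed (1.55, adjusted p = 0.0575). Without Tom+ injured replicate 1 it passed (1.55, adjusted p = 0.000302). The 2 Tom-GFP+ injured libraries had 436 and 432 CPM in FLS. Col6a1 did not pass by edgeR (0.56, adjusted p = 0.268) but gained a call in 2 of 16 alternatives. Its difference ran from 0.30 to 1.13 over these alternatives. Col18a1 in FLS was at 22.1 and 23.96 CPM in the steady state and at 3.70, 6.64, 11.5 and 22.2 CPM after injury, so that 3 of 4 injured libraries lay below both others, with no call (-1.02, adjusted p = 0.446). Col8a1 overlapped in FLS, at 62.6 and 58.6 CPM and then at 47.5, 21.4, 21.5 and 59.0 CPM (-0.66, adjusted p = 0.457). The difference of the injury effect between FLS and Thy1+ fibroblasts was not tested. In FLS the injury-induced markers summed to 50.6 to 99.4 CPM and then to 195 to 652 CPM, and the mural markers to 280.0 to 285 CPM and then to 127 to 218 CPM.

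Across 6 classes with Tom+ sums in both states, Col6a3 was the member whose injured libraries most often stood clear. All 4 injured libraries were above both steady-state libraries in 5 of 6 classes for Col6a3, in 4 for Col18a1, in 3 each for Col6a1, Col6a2 and Col8a1, in 2 for Col15a1 and in 0 for Col4a1, Col4a2 and Col8a2. The classes come from the same libraries, and the share of all genes that stood clear in as many classes was not counted. By class this lack of overlap held for 6 of 9 members in Thy1+ fibroblasts, where 21.9% of genes with a mean of 10 CPM or more did so. It held for 6 in osteoblast-lineage cells (10.7% of genes), 5 in tenocyte-lineage cells (15.8%), 2 in Prg4+ Clic5-low cells (20.1%), 1 in FLS (16.1%) and 0 in chondrocyte-lineage cells (9.33%). All 4 injured libraries were below both steady-state libraries in 1 class for Col8a2 and in 0 for the other members. The share of all genes on that side was not counted. In osteoblast-lineage cells Col6a3 was at 672 and 504 CPM and then at 1757, 2468, 1386 and 1247 CPM. Col18a1 there was at 19.7 CPM in both steady-state libraries and then at 66.6, 112, 82.6 and 57.2 CPM. In tenocyte-lineage cells Col6a3 was at 241 and 200 CPM and then at 1334, 799, 505 and 750.0 CPM. Col18a1 in Prg4+ Clic5-low cells was at 26.0 and 19.9 CPM and then at 43.7, 46.9, 67.0 and 63.3 CPM. Without Tom+ injured replicate 1, an alternative added after seeing the data, these counts were 6 in Thy1+ fibroblasts (25.4% of genes), 6 in osteoblast-lineage cells (12.9%), 6 in tenocyte-lineage cells (18.4%), 2 in Prg4+ Clic5-low cells (23.1%), 2 in FLS (18.5%) and 0 in chondrocyte-lineage cells (13.5%). Col6a3 then stood clear in 5 classes and Col18a1 in 4, as before, and Col15a1 in 3 and Col4a2 in 1. Apart from Thy1+ fibroblasts and FLS, no test across genes was made for injury in these classes.

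The Tom-GFP+ lineage and the comparison of lineages gave no called member in the fit of all 4 groups. After injury, 0 of 9 members passed in Tom-GFP+ Thy1+ fibroblasts by edgeR, where 0.754% of genes passed, and 2 had an unadjusted p under 0.05, as did 16.4% of genes, while DESeq2 also called 0. Those 2 were Col4a1 (-1.43, SE 0.58, adjusted p = 0.260), at 297 CPM in the steady-state library and 83.9 and 142 CPM after injury, and Col15a1 (-0.76, SE 0.31), at 123 CPM and then 62.5 and 85.7 CPM. Col6a3 was at 411 CPM and then at 564 and 706 CPM (0.60, SE 0.41), and Col18a1 at 41.7 CPM and then at 56.4 and 73.0 CPM. The lone steady-state library takes its spread from the other groups. With the gene list format as a block 3 members passed, Col4a1 (-2.99, adjusted p = 0.00603) and Col4a2 (-2.61, adjusted p = 0.0141) lower and Col8a1 (3.39, adjusted p = 0.00698) higher, and over all genes 602 passed against 90. The same 3 passed in the same directions without the filter on low counts, at -1.37, -1.14 and 1.71, with 1181 genes called. The format changed with the state in every Tom-GFP+ library, so within that lineage format and state cannot be told apart. In the interaction of lineage and injury 0% of genes and 0 members passed by edgeR and by DESeq2, while Col18a1 (1.05), Col15a1 (1.17) and Col6a3 (1.11) had unadjusted p under 0.05, as did 1.75% of genes. These libraries do not show that injury acted differently in the lineages.

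Between lineages in the injured state 0 members passed, 0 had an unadjusted p under 0.05 and DESeq2 called 0, where 0.0503% of genes passed by edgeR. In the steady state 0 members passed by edgeR and by DESeq2, where 0.0168% of genes did, and 3 had an unadjusted p under 0.05, as did 4.08% of genes. Col18a1 was lower in Tom+ fibroblasts, at 17.3 and 16.03 CPM against 41.7 CPM in the Tom-GFP+ library (-1.29, SE 0.28, adjusted p = 0.336). Col4a2 (-1.40) and Col15a1 (-0.98) were the others.

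Other genes of the same matrix were also called in places, in both directions. These small counts were not tested against the share of all genes. In Tom+ Thy1+ fibroblasts after injury 8.17% of all genes passed. There 2 of 18 folding and modifying genes passed, both higher, Plod2 by 2.54 and the prolyl hydroxylase P4ha3 by 1.499. Of 8 further basement membrane genes tested, Pxdn, the peroxidase that crosslinks collagen IV, rose by 2.27 and Sparc, a collagen-binding matricellular protein, by 1.07, and none fell. The laminin chain Lamb2 fell (-1.44) among 7 laminins tested. Of 10 receptors tested, 3 fell, the collagen-binding integrin chains Itga2 (-1.72) and Itga11 (-1.02) and the collagen receptor kinase Ddr2 (-0.88). In FLS after injury, where 4.37% of all genes passed, Plod2 (1.30), Lamb1 (1.55) and Sparc (0.99) rose and Lamb2 fell (-1.22). Tested there were 17 folding and modifying genes, 5 laminins, 7 further basement membrane genes and 8 receptors. In Tom-GFP+ fibroblasts, where 0.754% of all genes passed, Plod2 rose (2.12) and no other listed gene passed. Between cell classes calls were more frequent over all genes, as given above. FLS had 5 of 7 tested laminins lower and 1 higher than Thy1+ fibroblasts, with Lama5 at 4.06 and Lama2 at -3.89, and Nid2 was lower (-3.86). All 3 tested further chains, of collagens IV and VI, were lower in FLS, with Col4a5 at -4.06 and Col6a6 at -8.53. Mural cells were higher in Lama5 (4.90), in the integrin chains Itga1 (5.74) and Itga7 (5.08) and in nephronectin, Npnt (4.30). Chondrocyte-lineage cells had 6 of 6 tested laminins lower, with Itga10, a collagen-binding integrin chain of cartilage, higher by 5.68. Col10a1, the collagen of hypertrophic cartilage, was higher there by 11.09, a size that depends on the prior count.

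Chains of one collagen kept a steadier ratio in some families than in others. Ratios of 5′ counts are not chain ratios of the protein and are read only between classes. The ratio of Col6a2 to Col6a1 UMIs had class medians of 0.973 to 1.10 over the 9 classes with 4 sums or more, and its range in Thy1+ fibroblasts was 0.983 to 1.12. The ratio of Col6a3 to Col6a1 varied more and differed between states within a class. In the Tom+ steady-state libraries it was 0.438 and 0.391 in FLS, 0.428 and 0.360 in Thy1+ fibroblasts and 0.331 and 0.332 in tenocyte-lineage cells. In the Tom+ injured libraries it was 0.776 to 1.03 in FLS, 0.629 to 0.700 in Thy1+ fibroblasts and 0.477 to 0.580 in tenocyte-lineage cells, so these Tom+ libraries of FLS and Thy1+ fibroblasts overlapped in the steady state and not after injury. Mural cells had 0.400 in the lone steady-state sum, from 21 UMIs of Col6a3 and Col6a1, and 1.13 to 1.54 in the injured ones. Col4a2 to Col4a1 had medians of 0.694 in Thy1+ fibroblasts and 0.790 in FLS, with ranges of 0.471 to 0.768 and 0.607 to 0.928 that overlap. Col8a2 to Col8a1 ran from a median of 0.0156 in FLS to 1.06 in osteoblast-lineage cells.

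**Figure D5:**
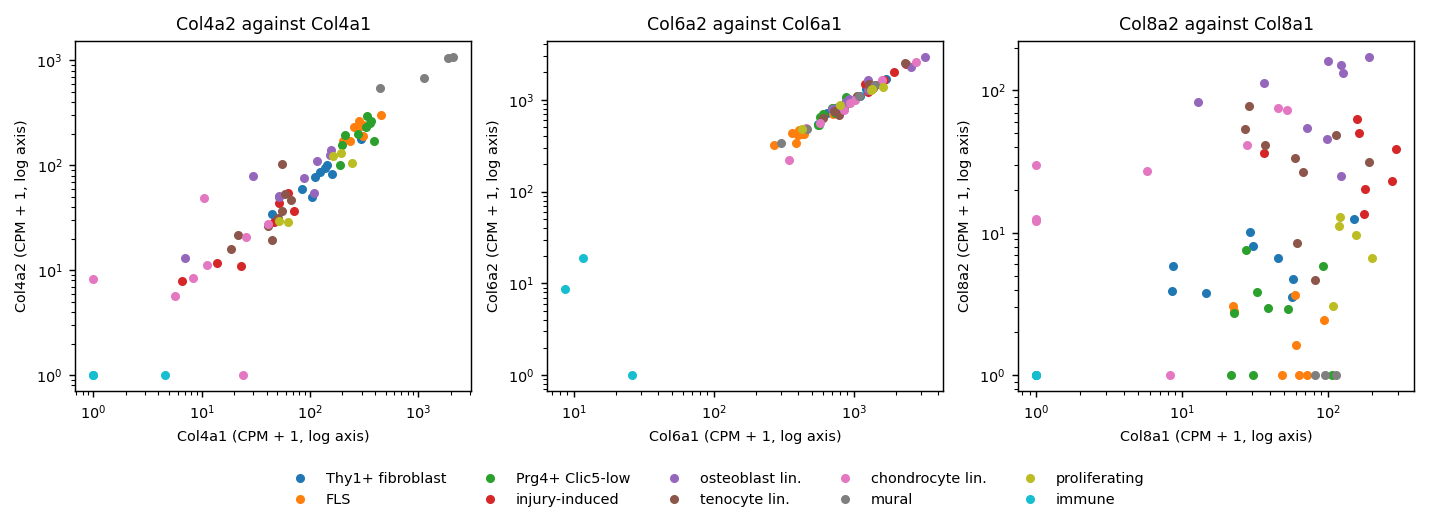
CPM plus 1 of paired collagen chains (log axes), with 1 point per class and library coloured by class and the 1 adipocyte-like sum not drawn. Over all 72 sums Col6a1 and Col6a2 fall close to a line (r = 0.946), as do Col4a1 and Col4a2 (r = 0.923), while Col8a1 and Col8a2 scatter (r = 0.297).

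The same held over the 72 sums of a class in a library, as a description. These points share libraries and depth and are not independent. On log2 CPM, Col4a1 was most like Col4a2 (r = 0.923) among 8099 genes, then Ebf1 (0.846) and Cfl2 (0.773). For Col4a2 the next were Ebf1 (0.803) and C1qtnf5 (0.780). Col6a1 was most like Col6a2 (0.946), Bgn (0.911) and Col6a3 (0.909), Col6a2 was also like Col6a3 (0.944) and Serpinh1 (0.923), and Col6a3 had Ppic (0.891) after those chains. Col8a1 was most like Tnc (0.769), Col5a1 (0.749) and Gpx7 (0.744), while Col8a2 was most like Fmod (0.818), 1500015O10Rik (0.801) and Clec11a (0.798), so neither collagen VIII chain had the other among its 3. Tnc and Fmod are also markers by which classes were named. Col15a1 was most like Mgp (0.783), Nrep (0.757) and Cdkn1c (0.754), and Col18a1 like Adamts4 (0.802), Pxdn (0.777) and Adamts12 (0.741).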

How the data were processed

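Single-cell RNA of sorted knee cells was measured in 9 libraries with the 5′ chemistry of 10x Genomics after digestion in collagenase IV at 1 mg/ml for 50 min at 37 °C. The authors deposited raw UMI counts per gene and cell barcode, without normalization, made with Cell Ranger on GRCm38.p6 as named in the submitters' processing notes. The versions of Cell Ranger are not given in the sources used here. A barcode was kept with a minimum of 500 genes and 1000 UMIs and a mitochondrial share of up to 10%. Libraries were integrated by canonical correlation analysis in Seurat 5.3.0 on 2000 variable genes and 30 dimensions and clustered at resolution 1, with collagens, listed genes and reporters held out. Clusters were named by summed marker scores under a rule chosen once the clusters had been seen, so names are rebuilt and not the study's. Doublets were kept, and an alternative left out the highest 5% of Scrublet scores.

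Counts of each library's cells were summed by class, with at least 10 cells. The main test was edgeR 4.0.16 quasi-likelihood with TMM scaling in R 4.3.3, adjusted by Benjamini-Hochberg over all genes tested, at a false discovery rate of 0.05. Lineage and injury were fitted over all 4 groups, and classes were compared with the library as a block. The edgeR test was tried on simulated data for the Tom+ injury design only. The class comparisons, the lineage and interaction contrasts and DESeq2 were not simulated. P-values of the injury and lineage fits weigh a difference against the spread between libraries. Those of the class comparisons weigh it against how the class difference varied over libraries. Alternatives were DESeq2 1.42.0, other size factors, no filter on low counts, marker gates in place of clusters, resolution 0.6, stricter filters on cells, at least 20 cells, the gene list format or the replicate number as a block, and each library left out. Named genes were all members, the 2 highest and 2 lowest called genes of each list, and the 3 genes most like each member over genes with a mean of 10 CPM or more. A gene that this rule names is not reported here. For a thinned share, cells under 3000 UMIs were left out. A count of 0 allows up to 3 counts, and such limits cover counting error only. The members and lists were chosen with earlier results of these data known.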

Additional observations from a re-analysis of the deposited data

Results flagged for a closer look

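In groups of 4 Tom+ injured libraries, 5 of 63 values of a member in a class had 1 library far from the other 3, which is 7.94% of groups, where chance flags about 1 in 20. The gap to the nearest library is given as a share of the range of the group. In FLS, Tom+ injured replicate 1 was lowest for Col4a2 (0.862) and highest for Col6a1 (0.894). In chondrocyte-lineage cells the same library was highest for Col8a1 (0.836) and Col8a2 (0.844). In osteoblast-lineage cells Tom+ injured replicate 3, with 17 cells, was highest for Col15a1 (0.860), at 183 CPM against 96.5 to 109 CPM.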

How the results depend on the processing

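Among counts of called members under the alternatives, 184 were within 1.5 times the reported count and 20 were not. Of the single-member values, 70 lost their call, 39 gained one and 23 were counted as changing sign. The other 1659 were counted as unchanged. They include sign changes of uncalled members that moved by no more than the SE, so sign changes are undercounted. The cause of these moves was not tested, apart from the smaller number of libraries where one was left out.

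In Tom+ Thy1+ fibroblasts after injury, where 3 members passed, 5 did so with DESeq2, without the filter on low counts, with marker gates, without the highest Scrublet scores and with injury-induced and proliferating cells included, and 6 with the gene list format as a block. Of the fits added after seeing the data, 0 passed in cluster 7 alone and 0 in cluster 9 alone. Leaving out each library gave 0 to 4. In FLS after injury, where 1 passed, no filter gave 2, the format block 2, at least 20 cells 0, and leaving out each library 0 to 1. In Tom-GFP+ injury, where 0 passed, no filter gave 3 and the format block 3, and between lineages in the steady state no filter gave 1. Of 8 in tenocyte-lineage cells, marker gates gave 2 and leaving out the highest Scrublet scores 5. Leaving out each library gave 8 to 9 in F4, 8 in FLS, 5 to 6 in chondrocyte-lineage, 3 to 5 in osteoblast-lineage, 7 to 8 in tenocyte-lineage and 4 to 5 in mural cells.

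The replicate number as a block gave 5 members in Tom+ Thy1+ fibroblasts, with Col6a1 and Col6a2 added, and changed the count of no other comparison by over 1.5 times. Under this block Col4a2 had -0.34 after Tom+ injury and Col15a1 -0.046 between injured lineages. Same-numbered libraries deviated together with correlations of 0.171 between injured lineages and 0.0685 between Tom+ states. The labels do not say that a number marks a mouse, so the number was treated as a number only.

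Other calls of single members that were lost included Col8a1 in chondrocyte-lineage cells by DESeq2 (-1.66, adjusted p = 0.0664) and with marker gates (-0.56), Col8a2 there in sums of at least 20 cells (1.34), Col8a1 in osteoblast-lineage cells with the stricter cell filter (0.95) and without the highest Scrublet scores (0.54), Col18a1 in F4 without the highest Scrublet scores (-0.42) and Col15a1 in injury-induced cells with marker gates (-0.29).

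Beside the replicate block, counted sign changes in Tom+ Thy1+ injury were Col4a2 at -1.02 (format block), -0.66 (cluster 1) and -0.32 (cluster 7), Col4a1 at 1.54 (cluster 5) and 0.19 (cluster 9) and Col15a1 at -0.046 (injury-induced and proliferating cells included). Among those within the SE, and so not counted, Col4a2 was at -0.22 without Tom+ steady-state replicate 2. In FLS injury the format block gave Col4a1 -0.36 and Col4a2 -0.0068. With marker gates Col18a1 was at -0.086 in Tom-GFP+ injury, 0.079 between injured lineages and 0.66 in injury-induced cells, and Col8a1 at -0.33 and Col15a1 at 0.19 in osteoblast-lineage cells. Leaving out each library moved Col4a1 from -0.44 to 0.35 and Col4a2 from -0.43 to 0.35 between injured lineages, both ends without a Tom-GFP+ injured library. Col8a1 was at 0.38 in FLS by DESeq2, and Col6a3 at 0.48 in mural cells with at least 20 cells. Col18a1 was at -0.13 in osteoblast-lineage cells without Tom+ injured replicate 2. In tenocyte-lineage cells Col6a3 was at 0.43 and Col18a1 at 0.23 without the highest Scrublet scores, and leaving out each library moved Col6a3 from -0.0920 to 0.071, the latter without the Tom-GFP+ steady-state library. Leaving out the lone Tom-GFP+ steady-state library was not run in the 3 comparisons that need it, nor the Scrublet alternative in injury-induced cells. Depth limits the low genes most, as 3 UMIs in a sum of Thy1+ fibroblasts of Tom+ steady-state replicate 1 correspond to 1.73 CPM. Sums of rarer classes were smaller, down to 74414 UMIs in chondrocyte-lineage cells and 49870 UMIs in mural cells. The same 3 UMIs correspond to more CPM in those sums.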
